A study of Mus musculus with 6 samples.

Results

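The cytosolic RNA and DNA sensors described here are 10 genes that encode the receptors for nucleic acid in the cytosol and the adaptors and kinases that act upstream of interferon beta (Ifnb1). They were chosen by name from the gene symbols of the deposited table, and all 10 were present among its 78298 genes, with RIG-I under the symbol Rigi. The receptors for RNA are Rigi, Ifih1 (MDA5) and Dhx58 (LGP2), with Mavs as their adaptor. Cgas and Sting1 form the DNA arm. Tbk1 and Ikbke are the kinases that serve both arms, and Eif2ak2 (PKR) and Adar (ADAR1) bind RNA duplexes.

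The samples were RENCA cells, an established mouse renal adenocarcinoma line, in 2 groups of 3 samples. The oe-AQP1 group carried a lentivirus that overexpresses AQP1, a water channel, and the oe-NC group carried the matching negative control lentivirus. Cells of both groups were transduced for 48 h and then kept in puromycin at 2 μg/mL for 14 days, so the control cells also carried an integrated vector and had been under the drug. A ubiquitin C promoter drove the vector's expression, each group was a selected population of a single cell line, and no sample of untransduced RENCA cells was used here. All samples had the same batch label. The labels do not say whether the 3 samples of a group came from separate transductions, so the p-values measure the spread between these samples, which may be that of parallel cultures. The comparison addressed which genes of the sensing machinery differ in RNA level when AQP1 is overexpressed.

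RIG-I-like receptors are helicases that recognise viral or otherwise foreign RNA in the cytosol. RIG-I and MDA5 then engage MAVS on mitochondria through their CARD domains, whereas LGP2 lacks these domains and modulates the other receptors. The enzyme cGAS binds DNA and makes a cyclic dinucleotide that activates STING, and both MAVS and STING lead to TBK1 and IKKε, which phosphorylate the interferon regulatory factors. PKR halts translation when it binds RNA duplexes, and ADAR1 edits adenosines in such duplexes and so limits the response of MDA5 and PKR to the cell's own RNA. Many of these genes are themselves induced by interferon.

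The Pfam domains in the deposited annotation followed these roles. Rigi and Ifih1 were assigned a CARD domain, a helicase domain and the RIG-I C-terminal domain, Dhx58 the same without the CARD domain, and Mavs a CARD domain alone. Tbk1 and Ikbke shared a kinase domain, a ubiquitin-like domain and a coiled coil. Eif2ak2 paired a kinase with RNA-binding domains, and Adar was assigned the Z-alpha, RNA-binding and deaminase domains.

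The sequences just around the gene starts show which sensor genes carry the letters that interferon-activated factors recognise. Promoters from RefSeq (GRCm38.p6) covering 250 bases before to 50 bases after the annotated start were found for 8 of the 10 genes, with 3 starts for Adar, and none was used for Dhx58 and Sting1. They were searched on both strands for GAAANNGAAA, the core of the interferon-stimulated response element, and for AANNGAAA, a looser form that lies within every match of the stricter one. The stricter letters were found in Rigi, Ifih1 and Eif2ak2, against 3.44% of the 32851 promoters and 3.99% of the 27025 genes in the RefSeq table. The looser letters were found also in Adar, at its start number 3, and in Ikbke, against 23.9% of all promoters. Counted by gene, with a match at any start, the share was 26.7%. The windows of 30 bases that hold them are shown because these genes differ in the results that follow. The windows are written 5′ to 3′ on the gene's strand with a match in capitals. The Rigi window at chr4:40239804-40239833 and the Ikbke window hold the reverse complement.
Rigi, chr4:40239804-40239833, minus strand: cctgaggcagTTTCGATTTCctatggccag
Rigi, chr4:40239866-40239895, minus strand: tctaggttcagAAACGAAActggatccccg
Ifih1, chr2:62646206-62646235, minus strand: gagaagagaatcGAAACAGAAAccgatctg
Eif2ak2, chr17:78882535-78882564, minus strand: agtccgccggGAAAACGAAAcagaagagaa
Adar, chr3:89730736-89730765, plus strand: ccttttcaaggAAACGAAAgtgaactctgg
Ikbke, chr1:131279677-131279706, minus strand: acagaatcctcTTTCCCTTtactgaagggg

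Most of the matches lay close to the start. The first base of the match in capitals was at offset 2 from the start in the first Rigi window, 18 in Eif2ak2, 29 in Adar and 32 in Ifih1. Another match of the looser form in Ifih1, at offset 28, overlaps the one in capitals. The match was at -59 in the second Rigi window and at -132 in Ikbke, where the letters are on the opposite strand. Neither form was found in the windows of Mavs, Cgas and Tbk1, which says only that these letters are not in these stretches. Another set of letters, GGGNNNNNCC of the NF-κB type, occurred in Cgas, Tbk1, Eif2ak2 and Adar, and in 50.8% of all promoters and 53.5% of genes.

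The 6 libraries held between 18385714.02 and 21920898.67 expected counts, that is, estimated reads per gene that need not be whole. The targeted gene, Aqp1, had 7713, 8545 and 7838 counts in oe-AQP1 and 41, 25 and 45 in oe-NC, so the gene was higher in the samples labelled as overexpressing it. Of 12 renal epithelial markers, 11 had counts and Epcam was at 0, and their summed CPM (counts scaled to a common library size) lay between 1044 and 1157 in oe-NC and between 855.1 and 888 in oe-AQP1. Of 12 macrophage markers, 7 had a count, whereas Adgre1, Tyrobp, C1qa, C1qb and C1qc were at 0 in all samples. Cd68, Lyz2, Cd14 and Csf1r were the 4 that reached 10 counts in a sample. Among them, Csf1r had 56, 74 and 76 counts in oe-AQP1 and 173, 183 and 202 in oe-NC. The summed macrophage CPM lay between 69.34 and 71.35 in oe-NC and between 59.04 and 62.17 in oe-AQP1. None of 8 lymphocyte markers reached 10 counts in any sample, with sums between 0.051 and 0.422 CPM in oe-NC and between 0.0973 and 0.227 in oe-AQP1. Of 8 fibroblast and endothelial markers, 7 had a count and Kdr was at 0, with sums between 52.5 and 66.38 CPM in oe-NC and between 57.76 and 59.53 in oe-AQP1. The part of the markers in the results on the sensor genes was not tested. In the oe-NC group, sample 1 stood apart: the chi-square per gene was 9.81 and 11.4 against its 2 partners, whereas it was 1.71 to 2.04 in the other pairs within a group. Calls of the sensor genes, and counts in the lists of partner genes that moved by over 1.5 times, are given with and without this sample.

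All sensor genes that passed the test were higher in oe-AQP1. Genes were called at a false discovery rate (FDR, the Benjamini-Hochberg adjusted p of limma-voom over all 15522 genes tested) under 0.05 with an absolute log2 fold change (log2FC) above 1, and were also counted at the FDR alone. Of the 10 sensor genes, 9 had enough counts to be tested and Cgas had too few. Dhx58, Ifih1, Rigi, Eif2ak2 and Adar, 5 genes, were higher in oe-AQP1 past both thresholds, against 4.39% of all genes tested, and none was lower past both, against 0.844%. At the FDR alone, 8 of the 9 were higher, against 16% of all genes, and none was lower, against 16.6%. Mavs was the gene that did not pass. At an unadjusted p under 0.05, limma-voom gave 0 lower sensor genes, as did edgeR and DESeq2 at either threshold. The median log2FC of the 9 genes was 1.03, and that of all genes tested was 0.00. In the same 8 genes the CPM values of the groups did not overlap, and 23.5% of all genes were higher without overlap. No sensor gene was lower without overlap, against 23.8% of all genes. In bulk RNA, fewer cells that express a gene and less RNA per cell cannot be told apart.

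**Figure D1:**
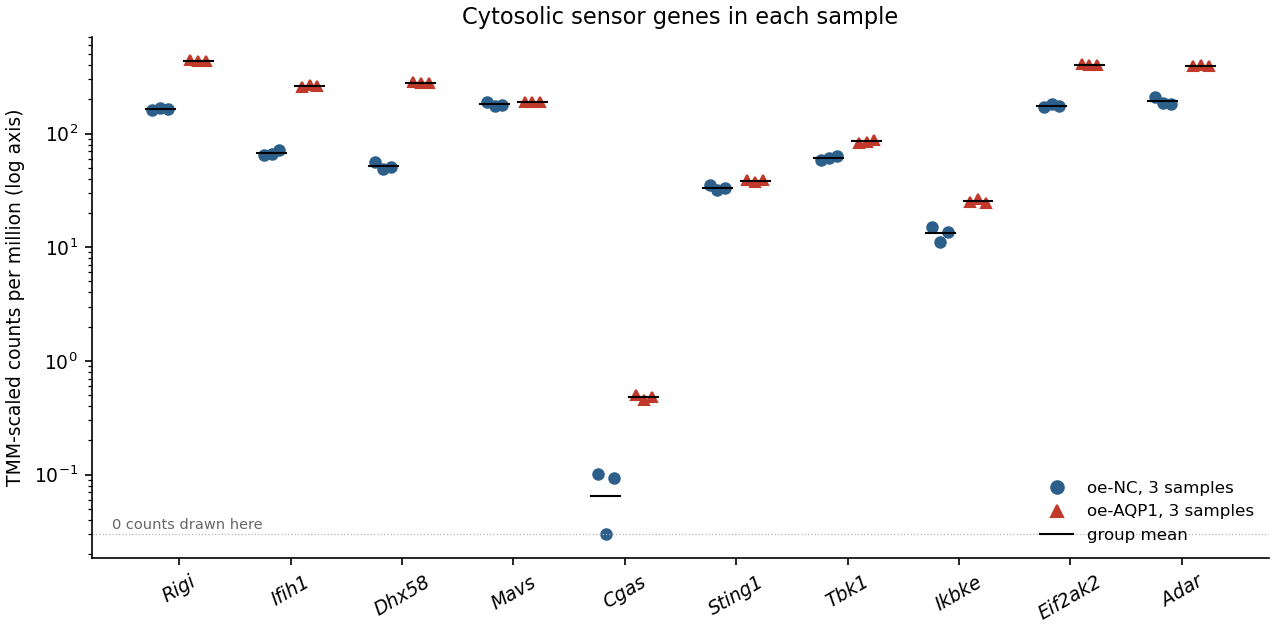
TMM-scaled CPM (log axis) of the 10 sensor genes in each of the 3 oe-NC samples (blue circles) and the 3 oe-AQP1 samples (red triangles), with a line at each group mean. The groups are apart for every gene except Mavs, and the oe-NC sample of Cgas with 0 counts is drawn on the dotted line at the bottom.

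Among the RNA receptors, Dhx58 (ENSMUSG00000017830, chr11:100585710-100595097, minus strand, GRCm39) encodes LGP2, the helicase without CARD domains. It had 5588, 6072 and 5696 counts in oe-AQP1 and 1093, 883 and 1079 in oe-NC. Every oe-AQP1 sample was above every oe-NC sample. The mean was 278.6 ± 3.51 CPM in oe-AQP1 and 51.54 ± 3.77 CPM in oe-NC (SD, n = 3 each). The log2FC was 2.44 with a standard error (SE) of 0.05, which is 5.41-fold (95% confidence interval 5.0 to 5.85), with an FDR of 1.714e-10 by limma-voom. With the genes ordered by log2FC from the highest, Dhx58 was number 177 of 15522 and the first of the sensors.

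Ifih1 (ENSMUSG00000026896, chr2:62425714-62476607, minus strand) encodes MDA5, the receptor for long RNA duplexes. It had 5089, 5882 and 5368 counts in oe-AQP1 and 1284, 1207 and 1516 in oe-NC. The groups were again apart, at 262 ± 5.12 and 67.53 ± 3.13 CPM. The log2FC of Ifih1 was 1.96 (SE 0.04), or 3.88-fold (3.62 to 4.15), with an FDR of 2.972e-10.

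Rigi (ENSMUSG00000040296, chr4:40203772-40239852, minus strand) encodes RIG-I, the receptor for short duplexes and RNA ends with a triphosphate. It had 8694, 9503 and 8907 counts in oe-AQP1 and 3166, 3065 and 3478 in oe-NC, without overlap. The means were 435 ± 4.08 and 164.1 ± 3.29 CPM. Rigi rose less than the other receptors, with a log2FC of 1.41 (SE 0.03), or 2.65-fold (2.52 to 2.80), and an FDR of 4.605e-10. The 95% intervals of Dhx58, Ifih1 and Rigi did not overlap each other.

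Mavs (ENSMUSG00000037523, chr2:131075442-131096740, plus strand), the mitochondrial adaptor on which RIG-I and MDA5 converge, gave a different result. It had 3754, 4130 and 3899 counts in oe-AQP1 and 3736, 3192 and 3812 in oe-NC. The oe-NC values spanned those of oe-AQP1 in CPM, and the means were 189.1 ± 1.12 and 181.3 ± 8.13 CPM. The log2FC was 0.06 (SE 0.04, 95% interval -0.03 to 0.15) with an FDR of 0.2831, so that a difference beyond 1.11-fold in either direction lay outside the interval. Without sample 1 of oe-NC, the highest of its group, the FDR was 0.005273 at a log2FC of 0.10.

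**Figure D2:**
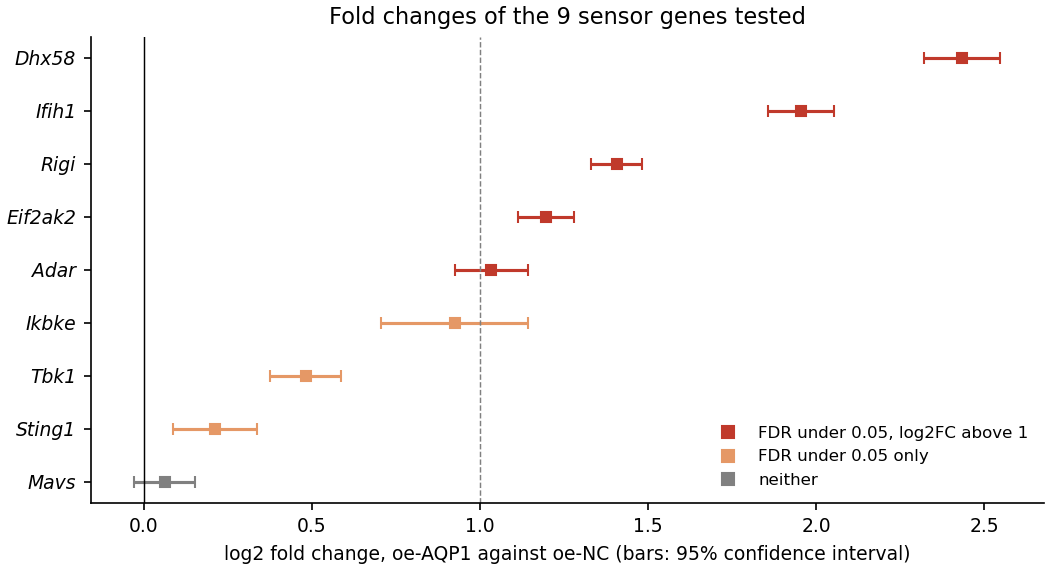
Log2 fold change of the 9 sensor genes tested, oe-AQP1 against oe-NC, with the 95% confidence interval from limma-voom; the dashed line marks a log2FC of 1. Dhx58, Ifih1, Rigi, Eif2ak2 and Adar pass both thresholds, Ikbke, Tbk1 and Sting1 pass the FDR alone, and the interval of Mavs spans 0.

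In the DNA arm, Cgas (ENSMUSG00000032344, chr9:78337802-78350535, minus strand), the DNA-binding enzyme that makes the messenger for STING, was barely detected. It had 10 counts in each oe-AQP1 sample and 2, 0 and 2 in oe-NC, so the groups were apart at counts too low for the filter. The summed counts were 30 and 4, a ratio of 7.13 per depth (exact 95% interval 2.51 to 27.9, which covers counting error only). When every gene with a count was kept, limma-voom gave a log2FC of 2.76 (SE 0.63) and an FDR of 0.006022. Leaving out sample 1 or sample 2 of oe-NC let Cgas pass the filter, with a log2FC of 3.16 (FDR 0.001581) and 2.05 (FDR 0.0155). In these fits it passed the filter through its oe-AQP1 counts alone, the group in which it was higher. These calls are therefore not independent of the difference. A long noncoding RNA on the opposite strand, Gm68924, shares 1785 exon bases with Cgas and had 0, 0 and 0.41 counts in oe-AQP1 and 0, 1 and 4.23 in oe-NC, which in oe-NC sample 3 was more than the 1.77 expected counts of Cgas. The kit's strand setting is not given in the sources used here, so reads of the 2 genes cannot be told apart. Counted together, an alternative added after seeing the data, they summed to 30 and 9, a ratio of 3.17 (1.47 to 7.59).

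Sting1 (ENSMUSG00000024349), the membrane adaptor downstream of cGAS, had 779, 829 and 795 counts in oe-AQP1 and 690, 580 and 706 in oe-NC. The groups did not overlap in CPM, at 38.59 ± 0.852 and 33.34 ± 1.72, but the step was small. The log2FC of Sting1 was 0.21 (SE 0.06), or 1.16-fold (1.06 to 1.26), with an FDR of 0.016. This call did not hold in all settings. The FDR was 0.08452 with no count filter, and 0.06945, 0.05861 and 0.06372 without oe-AQP1 sample 1, oe-AQP1 sample 3 and oe-NC sample 2.

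The kinases that both arms use differed from each other. Tbk1 (ENSMUSG00000020115, chr10:121382360-121422848, minus strand) is the kinase found in most cells and had 1640, 1864 and 1820 counts in oe-AQP1 against 1157, 1119 and 1349 in oe-NC. The means were 85.41 ± 2.84 and 61.15 ± 2.17 CPM, without overlap. Its log2FC was 0.48 (SE 0.05), or 1.4-fold (1.30 to 1.5), with an FDR of 3.523e-05, short of the fold threshold.

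Ikbke (ENSMUSG00000042349, chr1:131182080-131207346, minus strand) encodes IKKε, the inducible relative of TBK1. It had 492, 584 and 501 counts in oe-AQP1 and 297, 205 and 292 in oe-NC. The groups were apart, at 25.27 ± 1.15 and 13.35 ± 1.98 CPM, and the oe-NC samples varied most among the sensor genes tested, with a coefficient of variation of 14.8%. The log2FC was 0.92 (SE 0.10, 95% interval 0.71 to 1.14), or 1.90-fold (1.63 to 2.21), with an FDR of 5.85e-05. Ikbke crossed the fold threshold without sample 1 of oe-NC, at a log2FC of 1.01 (FDR 2.32e-08).

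The 2 duplex-binding enzymes lay close together. Eif2ak2 (ENSMUSG00000024079, chr17:79159972-79190012, minus strand), which encodes PKR, had 8050, 8798 and 8318 counts in oe-AQP1 and 3343, 3347 and 3745 in oe-NC. The means were 403.9 ± 3.55 and 176.4 ± 6.43 CPM, and no oe-NC sample reached the oe-AQP1 range. The log2FC of Eif2ak2 was 1.20 (SE 0.04), or 2.29-fold (2.16 to 2.43), with an FDR of 3.455e-09.

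Adar (ENSMUSG00000027951, chr3:89622329-89660753, plus strand) had 7750, 8741 and 8056 counts in oe-AQP1 and 4100, 3421 and 3884 in oe-NC. The means were 393.8 ± 3.25 and 192.8 ± 14.2 CPM, without overlap, and sample 1 was the highest of oe-NC. The log2FC was 1.03 (SE 0.05, 95% interval 0.92 to 1.14), or 2.05-fold (1.90 to 2.21), with an FDR of 1.116e-07. Adar thus stood at the fold threshold, and without sample 3 of oe-NC its log2FC was 0.99 (FDR 8.825e-07). A gene count does not separate the interferon-inducible and constitutive isoforms of ADAR1. Chrnb2 shares 1365 exon bases with Adar on the opposite strand and had at most 1.85% of its counts.

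Without sample 1 of oe-NC, 7 of the 10 sensor genes passed both thresholds, with Ikbke and Cgas added, and all 10 passed the FDR alone. Cgas entered these counts, and the one without sample 2, only because its oe-AQP1 counts passed the filter. In that fit 4.53% of the 16085 genes tested were higher past both thresholds and 19.4% at the FDR alone. Leaving out sample 2 of oe-NC gave 6 past both, with Cgas added, beside 4.2% of all genes tested in that fit. Leaving out sample 3 gave 4, with Adar lost, beside 4.41%.

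Levels were compared between genes in TPM, a measure that sums to the same total in every sample. These values divide by the exon length of each gene and were computed here from the counts. In oe-NC the order was Eif2ak2 at 125.8 ± 3.23 TPM, Adar at 92.07 ± 9.30, Rigi at 75.36 ± 1.62, Mavs at 61.86 ± 4.36 and Dhx58 at 59.33 ± 5.84. Tbk1 at 41.82 ± 0.553, Sting1 at 40.57 ± 3.08, Ifih1 at 29.11 ± 0.947, Ikbke at 4.98 ± 0.837 and Cgas at 0.049 ± 0.0427 TPM followed. The samples of Mavs and Dhx58 overlapped, as did those of Tbk1 and Sting1, and the other neighbours did not. The control cells thus held all the RNA receptors, the adaptors and Tbk1 at levels at or above those of at least 93.29% of genes in the table. That share includes the many genes with few or no counts, since only 15522 of the 78298 genes were tested. Cgas, at the edge of detection, was itself at or above 65.53% of genes on this scale.

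The order was different in oe-AQP1. Dhx58 moved from place 5 to place 1 with 332.6 ± 2.81 TPM, ahead of Eif2ak2 at 299.3 ± 2.07, Rigi at 207.5 ± 1.10 and Adar at 195 ± 2.04. Ifih1 moved from place 8 to place 5 at 117.3 ± 2.66 TPM, and passed Mavs at 66.96 ± 0.393, Tbk1 at 60.69 ± 2.27 and Sting1 at 48.72 ± 0.937. Ikbke at 9.77 ± 0.45 and Cgas at 0.374 ± 0.0189 TPM stayed last. No neighbours overlapped in this group. With the longest transcript as the gene length, Rigi came ahead of Adar and Dhx58 ahead of Mavs in oe-NC, with overlap in both cases, and Tbk1 ahead of Mavs in oe-AQP1, and Dhx58 was again first in oe-AQP1.

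**Figure D3:**
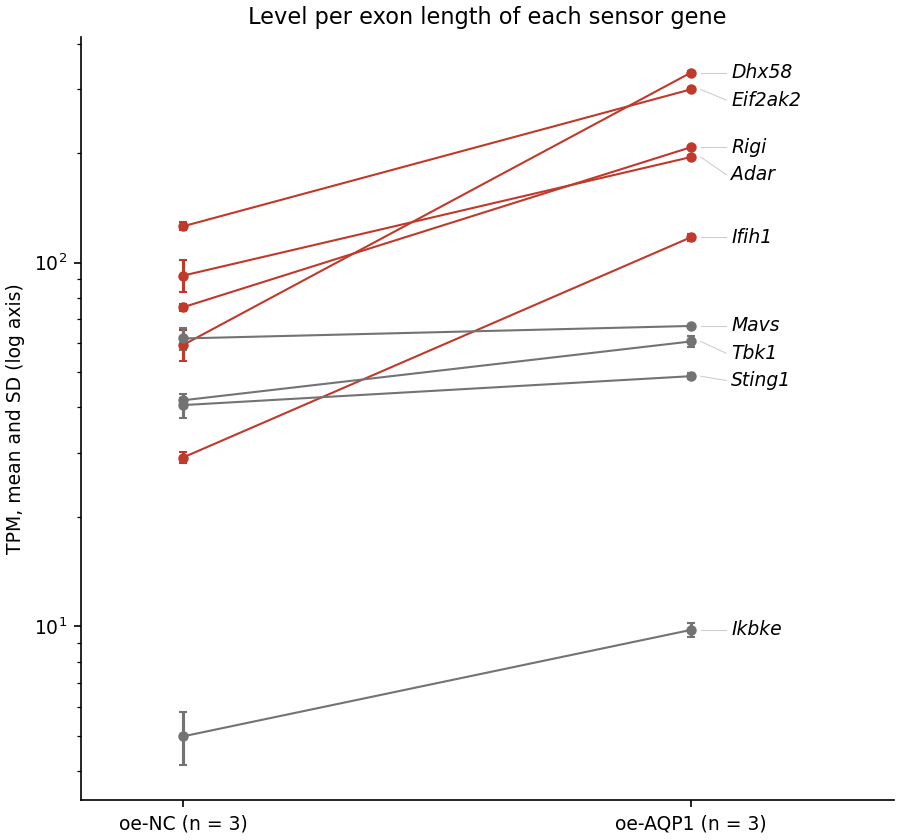
Level per exon length (TPM, log axis; points are means and bars the SD of 3 samples) of 9 sensor genes in oe-NC and oe-AQP1, with genes past both thresholds in red and the others in grey; Cgas, below 1 TPM in both groups, is left out. Dhx58 and Ifih1 cross above other sensors in oe-AQP1, while Mavs and Sting1 run nearly level.

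Ratios between sensor genes within a sample do not depend on scaling between samples, and 5 were tested with an exact two-sided permutation test of 3 against 3 samples, which cannot give a p below 0.1. All 5 reached that smallest value, with an adjusted p of 0.1, and so none passes 0.05. The log2 ratio of Dhx58 to Rigi was -0.64, -0.65 and -0.64 in oe-AQP1 and -1.53, -1.80 and -1.69 in oe-NC. The oe-AQP1 samples were almost equal and all above oe-NC, and the difference was 1.03, or 2.04-fold. Per exon length, Dhx58 was at 0.787 of the level of Rigi in oe-NC and at 1.60 times that level in oe-AQP1. These values depend on the gene length used. With the longest transcript, the means of Dhx58 and Rigi were 61.12 and 95.78 TPM in oe-NC, and 339.3 and 261.1 TPM in oe-AQP1.

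The log2 ratio of Ifih1 to Rigi was higher by 0.55 in oe-AQP1 (-0.73 ± 0.04 against -1.28 ± 0.08, SD, n = 3 each), or 1.46-fold. That of Ikbke to Tbk1 was higher by 0.45 (-1.76 ± 0.09 against -2.20 ± 0.24), or 1.36-fold. Ikbke nevertheless remained far below Tbk1, at 0.119 of its TPM in oe-NC and 0.161 in oe-AQP1. The log2 ratio of Eif2ak2 to Adar differed least, by 0.16 (0.04 ± 0.02 against -0.13 ± 0.15), and the oe-NC spread came largely from sample 1, at -0.29 against -0.03 and -0.05 in the other samples. For Cgas to Sting1 the difference was 2.56, but it rests on the few counts of Cgas.

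**Figure D4:**
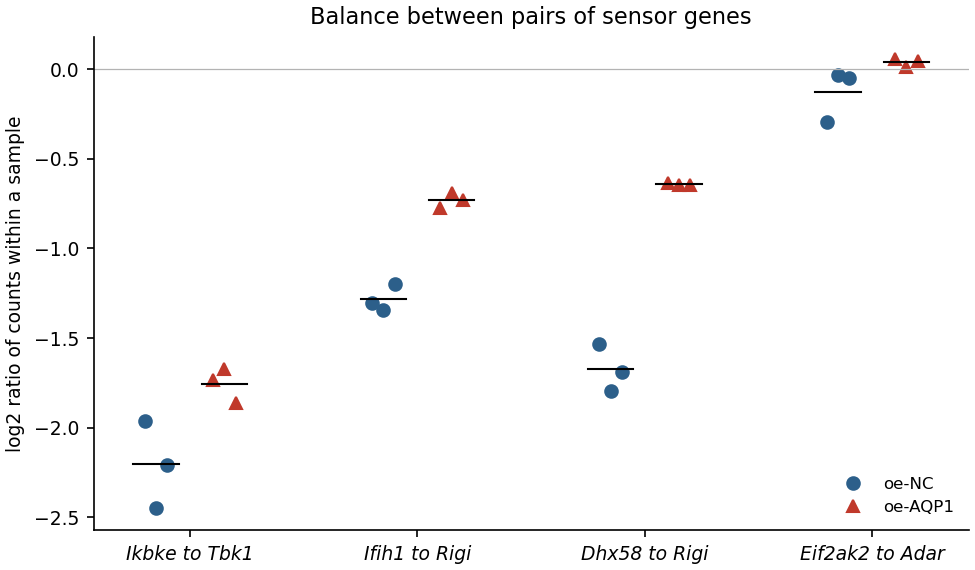
Log2 ratio of the counts of 2 sensor genes within each sample, for the 3 oe-NC samples (blue circles) and the 3 oe-AQP1 samples (red triangles), with a line at each group mean; the ratio of Cgas to Sting1 is left out. The groups are apart for all 4 pairs, most for Dhx58 to Rigi and least for Eif2ak2 to Adar.

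By their medians, the genes that act with the sensors moved less as groups, but a median hides changes in opposite directions. At the FDR alone, 32.5% of all genes were called in either direction. Of 20 cofactors and regulators of the RNA receptors, 19 were tested, 6 were higher and 6 were lower at the FDR alone, beside 16% and 16.6% of all genes, and their median log2FC was -0.01. The number of lower cofactors was 3 without sample 2 of oe-AQP1. It was 4 by DESeq2, by library size alone, with at least 10 counts in every sample, or with the replicate number as a block. It was also 4 without sample 1 or 3 of oe-AQP1, or without sample 2 or 3 of oe-NC. Ddx60, a helicase tied to RIG-I signalling, rose from 1041, 1065 and 1243 to 5612, 6284 and 6161 counts (log2FC 2.36, FDR 1.528e-10). The RNA-sensing helicase Znfx1 rose with a log2FC of 2.28 (FDR 3.573e-10), and Trim25, the ubiquitin ligase that activates RIG-I, with 0.88 (FDR 1.72e-08). The RNA helicases Ddx3x (log2FC -0.51, FDR 1.865e-05) and Dhx9 (-0.36, FDR 7.403e-05) fell, as did Ppp1ca, the phosphatase subunit that acts on RIG-I and MDA5 (-0.28, FDR 0.0001725).

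Of 25 partners of MAVS and TBK1, all were tested, 11 were higher and 0 were lower, beside 16% and 16.6% of all genes, with a median log2FC of 0.08. At an unadjusted p under 0.05, 1 was lower by limma-voom, edgeR and DESeq2, and neither of the other tools called any lower at the FDR. The counts were 10 higher and 1 lower with the replicate block, 10 and 1 with no count filter, 15 and 2 without sample 1 of oe-NC, and 10 and 1 without its sample 3. Irf7, the inducible interferon regulatory factor, had 38273, 42472 and 38940 counts in oe-AQP1 and 10018, 8815 and 10261 in oe-NC (log2FC 1.97, FDR 3.445e-11). Nlrc5, a regulator of both MHC class I and this pathway, had a log2FC of 1.67 (FDR 8.569e-10), and Marchf5, a mitochondrial ubiquitin ligase that acts on MAVS, 0.79 (FDR 9.509e-07). Irf3, the constitutive factor that TBK1 phosphorylates, had 355, 400 and 384 counts against 387, 344 and 410, with a log2FC of -0.08 (95% interval -0.21 to 0.06) and an FDR of 0.3861, although its oe-NC samples were all slightly above oe-AQP1 in CPM. Along the route from receptor to transcription factor, no difference passed for Mavs or Irf3 with all samples in the fit. Dhx58, Ifih1, Rigi, Ikbke, Tbk1 and Irf7 had log2FC values of 2.44, 1.96, 1.41, 0.92, 0.48 and 1.97.

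In the DNA arm, 27 of 30 partner genes were tested, 6 were higher and 8 lower, beside 16% and 16.6% of all genes, with a median log2FC of 0.01. The number of lower genes was 4 by DESeq2, 5 with no count filter, and 3 and 4 without samples 2 and 3 of oe-AQP1. Zbp1, a sensor of Z-form nucleic acid, had a log2FC of 3.32 (FDR 6.77e-12). The p200 family member Ifi204 had 2.33 (FDR 5.57e-11), and Trex1, the nuclease that degrades cytosolic DNA, 2.18 (FDR 2.414e-08). The subunits of the DNA-dependent protein kinase fell, with log2FC values of -0.56 for Prkdc (FDR 1.293e-05), -0.36 for Xrcc5 (FDR 0.001159) and -0.26 for Xrcc6 (FDR 0.0002631). Sting1, at 0.21, lay between these sets.

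Of 14 partners of PKR and ADAR1, all tested, 1 was higher and 2 were lower, beside 16% and 16.6% of all genes, with a median log2FC of -0.002. Without sample 1 of oe-NC, 4 were higher and 4 lower. Atf4, the transcription factor of the stress response that PKR can start, had a log2FC of 0.11 (FDR 0.01327), and this call was lost without oe-AQP1 sample 1, 2 or 3 or oe-NC sample 2 (FDR 0.05322 to 0.0847). Eif2ak3 (PERK), a relative of PKR, fell (log2FC -0.30, FDR 0.004364), and so did Dnajc3, an inhibitor of PKR (-0.29, FDR 0.001776). The other kinases of this family did not pass, with log2FC values of -0.01 for Eif2ak1 and -0.14 for Eif2ak4 (FDR 0.07309). Adarb1, the other deaminase of the ADAR family, had 681, 768 and 751 counts against 729, 646 and 734, with a log2FC of -0.01 (FDR 0.8826). Beside these relatives, Eif2ak2 and Adar had log2FC values of 1.20 and 1.03.

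**Figure D5:**
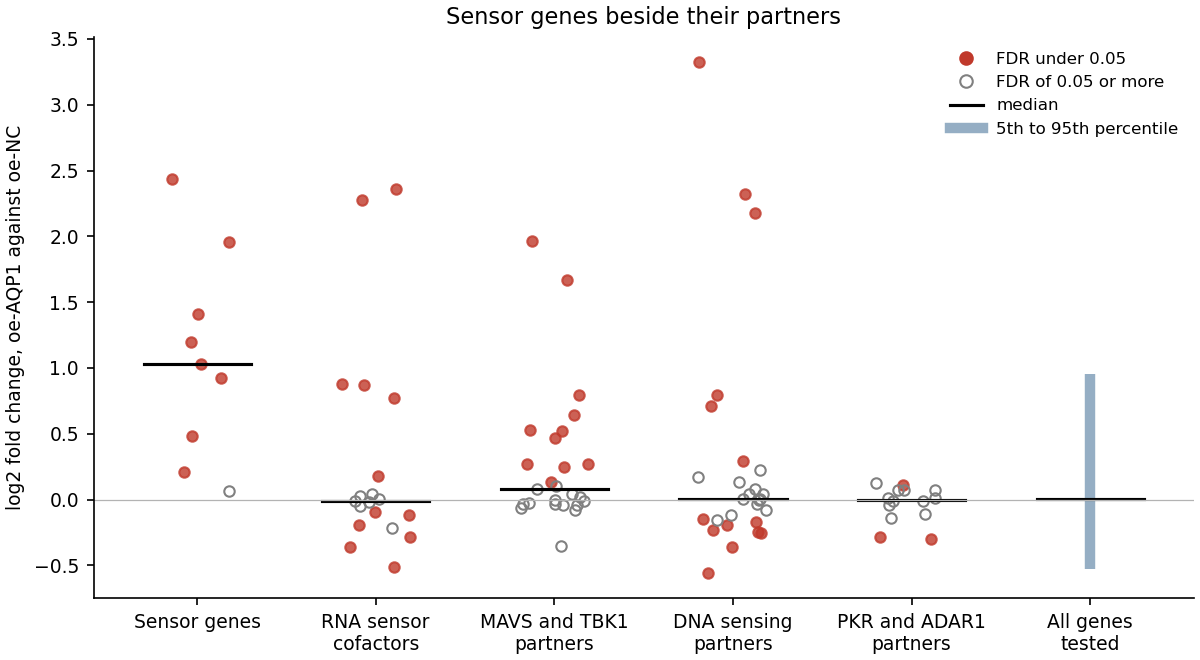
Log2 fold change, oe-AQP1 against oe-NC, of each gene tested among the sensors and 4 lists of partner genes, with filled red points at an FDR under 0.05, open grey points otherwise and a line at each median; the bar at the right spans the 5th to the 95th percentile of all genes tested. The sensor median is 1.03, and the medians of the 4 partner lists lie between -0.01 and 0.08.

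In the KEGG assignments of the deposited table, the RIG-I-like receptor pathway held 63 genes besides the sensors, of which 41 were tested, 18 were higher and 2 lower, beside 16% and 16.6% of all genes (median log2FC 0.14). The cytosolic DNA-sensing pathway held 68 genes besides the sensors, of which 49 were tested, 21 were higher and 2 lower (median 0.18). Without sample 1 of oe-NC the counts were 22 and 3 in the former and 27 and 3 in the latter, and leaving out other samples gave 1 to 3 lower genes in the former and 1 to 2 in the latter. The lower genes were Ddx3x and Map3k7 (-0.19) in the former and included Polr3b (-0.17) in the latter. The highest genes were ones that these pathways can lead to, and what raised them here was not tested. Ifnb1, which encodes interferon beta, had 264, 288 and 277 counts in oe-AQP1 and 3, 6 and 5 in oe-NC, a ratio of summed counts per depth of 56.3 (exact 95% interval 33.4 to 103, counting error only) and a log2FC of 5.72 (SE 0.30, FDR 2.598e-07). Ifna4, an interferon alpha gene, had 34, 23 and 23 counts and 0 in every oe-NC sample. Against an assumed floor of 3 counts over the oe-NC group it was 25.3-fold higher. The exact 95% interval of its ratio of summed counts per depth began at 20.1 (counting error only). Reads of Ifna4 may be shared with the near-identical interferon alpha genes. The chemokine gene Cxcl10 had 9896, 10839 and 10098 counts against 270, 244 and 286 (log2FC 5.19), and Il6, the gene of the inflammatory cytokine interleukin 6, had 43, 43 and 41 against 1, 1 and 0.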

How the data were processed

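The authors sequenced paired-end Illumina TruSeq libraries of total RNA and deposited an expected count per gene in each sample, not scaled between samples, with 2 columns of group means that were not used here. The submitters' processing notes name fastp, HISAT2, featureCounts and Subread with GRCm38 (mm10), whereas the methods of the study name GRCm39. Of the nonzero values, 31.1% are not whole, so which counter divided the reads is not given in the sources used here. Among the sensor genes, Dhx58, Cgas, Eif2ak2 and Adar have such values. Samples were grouped by their titles.

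Counts were rounded, filtered with filterByExpr and TMM-scaled (edgeR 4.0.16), and tested with limma-voom (limma 3.58.1, R 4.3.3) over 15522 genes. The scaling, the test and the thresholds are those of the study's methods. The study also removed interferon-stimulated genes and genes of viral defense, in order to limit artifacts of transfection, and kept inflammatory mediators. That removal was not made here. CPM values are TMM-scaled. TPM used exon lengths of GENCODE M39 (GRCm39), the source of gene positions. Ratios had 0.5 counts added. The procedure was checked on simulated data. The tests were repeated with DESeq2 1.42.0 and edgeR's quasi-likelihood test, with other scalings, filters and gene lengths, with unrounded counts, with a replicate block and without each sample.

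The sensor genes, partner lists, settings and naming rule (all sensors, Aqp1, Ifnb1, Ifna4, Irf3, Irf7, the 3 highest and 3 lowest calls of each list, and the 3 genes most like the sensors) were chosen with earlier results of these data known. Eif2ak1, Eif2ak4 and Adarb1 were named besides as relatives of sensor genes. A gene that the rule names is not reported here.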

Additional observations from a re-analysis of the deposited data

How the results depend on the processing

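The log2FC of each of the 9 sensor genes kept its direction in the 14 settings tried beside the main one. Without 1 sample at a time it ranged from 1.395 to 1.42 for Rigi, 1.931 to 1.993 for Ifih1, 2.39 to 2.49 for Dhx58, 0.03 to 0.10 for Mavs, 0.17 to 0.25 for Sting1, 0.45 to 0.51 for Tbk1, 0.81 to 1.015 for Ikbke, 1.17 to 1.22 for Eif2ak2 and 0.99 to 1.09 for Adar. Ikbke passed the fold threshold without oe-NC sample 1 (log2FC 1.015) and Adar missed it without oe-NC sample 3 (0.9913). The number of sensor genes past both thresholds ranged from 4 to 7, at the FDR alone from 7 to 10, and lower from 0 to 0. The 7 and the 10 at the upper ends include Cgas, which passed the filter only through its oe-AQP1 counts. Without 1 sample at a time, 4.17% to 4.53% of all genes were higher past both thresholds. At the FDR alone, 11.7% to 19.4% were higher and 11% to 20.7% lower. With no count filter, 6 sensor genes passed both thresholds, with Cgas added, and 8 the FDR alone, with Cgas added and Sting1 lost. In that fit 932 of 34240 genes were higher past both thresholds and 2134 at the FDR alone. Among all genes, 416 were higher and 66 lower past both thresholds with at least 10 counts in every sample, and 204 lower with no filter, against 681 and 131. The same replicate numbers did not pair the samples: their deviations correlated at 0.0142, -0.0218 and -0.0735 between the groups. With a replicate block, 5 sensor genes passed both thresholds and 8 the FDR alone, and no call of a sensor gene changed. In that fit 666 of 15522 genes were higher past both thresholds and 2346 at the FDR alone. Without 1 sample at a time, the partner lists had 5 to 6 higher and 3 to 6 lower genes among the RNA sensor cofactors, 10 to 15 and 0 to 2 among the MAVS and TBK1 partners, 5 to 8 and 3 to 9 among the DNA sensing partners, and 0 to 4 and 2 to 4 among the PKR and ADAR1 partners. No scaling moved the median of all genes by over 0.1. At this depth, counts as low as those of Cgas decide whether a gene is tested at all.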

Other observations

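Outside the sensors and their partners, the genes whose pattern over the 6 samples was most like the sensor mean (Pearson's r with the mean centred log2 CPM of the 9 sensor genes tested) were A530040E14Rik and Apol9b, both at 0.9998, and Irf9, a subunit of the factor that type I interferon activates, at 0.9997. Irf9 had 2925, 3260 and 3089 counts in oe-AQP1 and 1857, 1665 and 1994 in oe-NC. With samples in 2 separate groups such values say little about single genes, and 316 of 10654 genes with a mean of at least 100 counts had an r of at least 0.99.

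The sensor genes varied less within oe-AQP1 than within oe-NC. The coefficient of variation of the CPM was larger in oe-NC for 9 of the 9 sensor genes tested, as for 69.2% of all 15522 genes. Its median over the sensor genes was 1.26% in oe-AQP1 and 4.63% in oe-NC, beside 4.47% and 7.85% over all genes. Sample 1 of oe-NC was the highest or lowest of its group for 9 of the 9, as for 79.8% of all genes.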
